A study of Drosophila melanogaster with 8 samples.

Results

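The genes described here were those whose transcripts were at least 5-fold scarcer in wing discs that lacked the transcription factor Myb than in control discs. They were chosen from the read counts of the RNA sequencing libraries. A gene had to reach 0.5 CPM (its reads scaled to a common library total) in each control library, and its mean over the Myb mutant libraries had to be at most 0.2 of its mean over the control libraries. Of the 7916 genes at that control level, 85 (1.07%) met the rule. Of these, 21 were left out by name, among them Myb, the heat shock genes, several blood cell markers and the germline genes mei-218 and spn-E. That left 64 genes of the 14299 in the table. Since the difference between the genotypes chose these 64 genes, that difference is given as a description and was not tested. The mirror of the rule, with 0.5 CPM in each Myb mutant library and a control mean at most 0.2 of the mutant mean, was met by 132 of 7983 genes (1.65%).

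Polyadenylated RNA came from mesothoracic wing discs, the larval epithelium that forms the wing and the notum, of male Drosophila melanogaster larvae in the third instar. The Myb mutant carried MH107, a null allele on the X chromosome that arose by mobilisation of a P-element and that removes the start of Myb together with its neighbour AlkB, and the labels record death at the early pupal stage. The mutant line had been outcrossed for several generations into y1 w67c23 (called yw67), the laboratory stock that supplied the control discs, and mutant larvae were picked as males without the GFP of the balancer chromosome. There were 5 Myb mutant libraries and 3 yw67 control libraries. The labels disagreed on what they were: the protocol called them biological replicates, whereas the sample descriptions placed the control libraries in 1 biological replicate, Myb mutant library 1 in another and Myb mutant libraries 2 to 5 in another again. The p-values for neighbouring genes and gene lists therefore measured only the spread between these libraries, which may be technical.

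Myb is a DNA-binding subunit of the dREAM complex, an assembly of retinoblastoma-family, E2F and other chromatin proteins. The complex holds many genes silent, including genes of other tissues and of the germ line, while Myb itself is best known for raising the expression of genes of mitosis. The wing disc is a dividing epithelium, and disc preparations also hold myoblasts, tracheal cells and some attached blood cells, the hemocytes.

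Library totals ran from 50562199 to 65322440 counts. In the edgeR fit over all genes, 1587 of 9076 tested genes were called lower in the Myb mutant (17.5%) and 1534 were called higher (16.9%), at a Benjamini-Hochberg adjusted p under 0.05. All 10 genes of a wing disc marker list were tested, and the list summed to between 1655 and 1701 CPM in the Myb mutant libraries and between 1409.95 and 1777 CPM in the control libraries. Libraries of the same genotype differed in what else they held. A list of fat body genes summed to between 529 CPM (Myb mutant library 2) and 5428 CPM (Myb mutant library 1), and to between 132 CPM (control library 3) and 4715 CPM (control library 1). Myb mutant library 1 alone held 56 genes at 5 CPM or more and 5-fold over every other mutant library, none of them among the 64 genes. A list of gut genes summed to 862 CPM in that library and to between 3.48 and 9.26 CPM in Myb mutant libraries 2 to 5. In the control libraries the gut list summed to between 5.66 and 20.2 CPM. Control library 2 alone held 9 genes at 5 CPM or more and 5-fold over both other control libraries. All 9 had names of heat shock genes, which were left out by name. Hsp70Aa, which met the rule, had 15.8, 344 and 29.2 CPM in control libraries 1 to 3, against 2.38 to 41.5 CPM in the Myb mutant libraries.

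The 64 genes were mostly genes of modest expression whose transcripts remained detectable without Myb. Their control means had a median of 6.38 CPM and ranged from 0.792 to 197 CPM, and their Myb mutant means had a median of 0.512 CPM. The control mean was 10 CPM or more for 27 of them, between 1 and 10 CPM for 34 and under 1 CPM for 3. The median gene was 11.8-fold lower in the Myb mutant. For 31 genes the mean was 5-fold to 10-fold lower, for 26 it was 10-fold to 50-fold lower, and 7 genes were more than 50-fold lower or had no counts. Reads were found in every Myb mutant library for 53 of the 64 genes, and 11 had a Myb mutant mean under 0.1 CPM. In sum they took 118, 105, 121, 135 and 96.9 CPM of Myb mutant libraries 1 to 5, against 873, 1130.2 and 1197 CPM of control libraries 1 to 3.

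**Figure D1:**
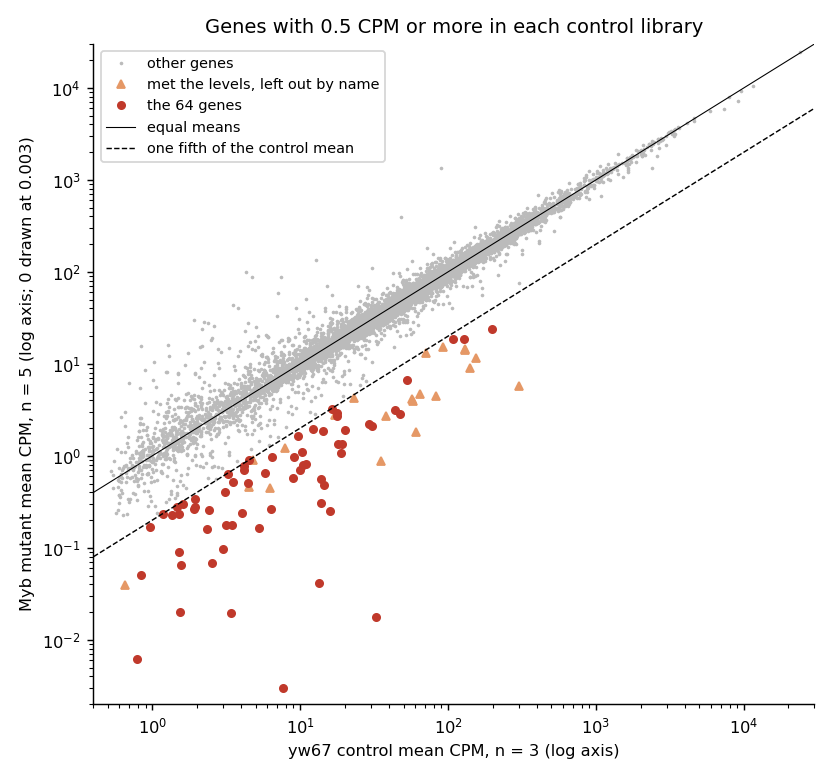
Mean CPM over the 5 Myb mutant libraries (vertical, log axis) against mean CPM over the 3 yw67 control libraries (horizontal, log axis) for every gene with 0.5 CPM or more in each control library. The 64 genes (red points) and the 21 genes left out by name (orange triangles) lie below the dashed line at 0.2 of the control mean, while most other genes (grey) lie along the solid line of equal means.

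All 64 genes passed the edgeR filter on low counts. The fit called 62 of them lower, where 17.5% of all tested genes were called lower and 2.42% were called lower with a log2 fold change of -1 or less, and every Myb mutant library was below every control library for 63 of them, where 21.7% of genes at that control level were. The rule was set on this same contrast, so neither count adds to it. The genes not called were Bc and CG5399, and the gene whose groups overlapped was sad. CG5399 had 0.663 CPM in Myb mutant library 1 and between 0.0308 and 0.0787 CPM in libraries 2 to 5. Its control libraries had 0.697, 0.723 and 1.49 CPM.

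**Figure D2:**
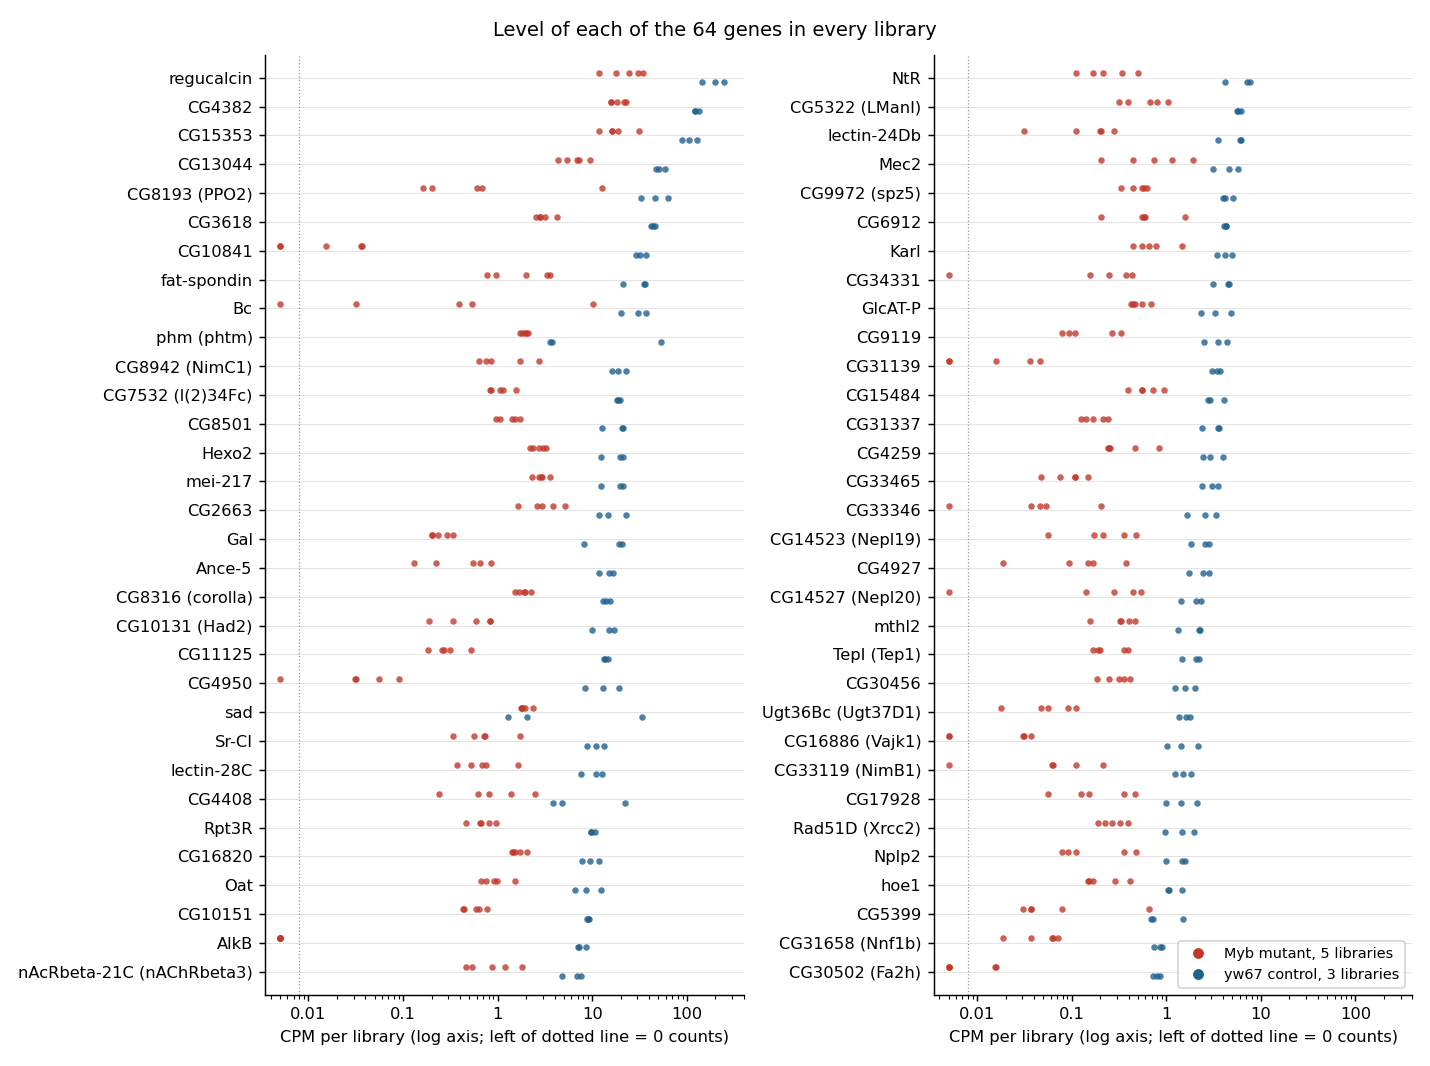
CPM of each of the 64 genes in every library (horizontal, log axis), with the Myb mutant libraries in red above the control libraries in blue. Genes are ordered by control mean, and for 63 of the 64 all red points lie left of all blue points, with sad the exception.

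AlkB, which encodes a demethylase of the AlkB family, checks the labels, because MH107 deletes it. Its row held 0 counts in each of the 5 Myb mutant libraries and 7.23, 7.11 and 8.61 CPM in the control libraries. Set against a floor of 3 counts over the Myb mutant group, AlkB was at least 744-fold lower. In the BDGP6 annotation AlkB lies on X:15858134-15859487, 310 bases from Myb (X:15854832-15857823), which itself averaged 5.79 CPM in Myb mutant discs and 300.1 CPM in control discs.

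The largest group with a shared role, 8 genes, belonged to blood cells and immune defence, a label given after the values were seen. A separate list of immune peptide genes ran the other way. Of its 19 tested genes edgeR called 0 lower and 9 higher at an adjusted p under 0.05, against 16.9% higher of all tested genes. That list summed to 455 CPM in Myb mutant library 1 and to between 18.1 and 51.0 CPM in libraries 2 to 5. In the control libraries it summed to between 4.10 and 13.2 CPM. CG8193 (PPO2) and Bc (PPO1) encode prophenoloxidases, the enzymes with which crystal cells blacken wounds. CG8193 had 0.161, 12.7, 0.601, 0.688 and 0.205 CPM in Myb mutant libraries 1 to 5, against 32.8, 63.3 and 45.5 CPM in the control libraries. Bc had 0, 10.1, 0.539, 0.390 and 0.0315 CPM in the Myb mutant libraries, against 20.01, 37.1 and 30.5 CPM in the control libraries. Both genes were thus far below the control in 4 of the 5 Myb mutant libraries and within a few-fold of it in library 2, where no other gene stood out in the same way. CG8193 was 16.5-fold lower on the means and 114-fold lower without Myb mutant library 2. Bc was 13.2-fold lower on the means and 122-fold lower without that library.

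The members known from plasmatocytes, the phagocytic blood cells, did not follow that pattern. CG8942 (NimC1), a phagocytic receptor of the Nimrod family, had 0.860, 0.744, 1.74, 2.73 and 0.630 CPM in the Myb mutant libraries, against 16.2, 18.8 and 22.6 CPM in the control libraries. Sr-CI, a scavenger receptor, had 0.341, 0.725, 0.739, 1.73 and 0.567 CPM in the Myb mutant libraries, against 8.82, 10.99 and 13.2 CPM in the control libraries. For both genes the highest Myb mutant library was library 4, and the groups were well apart. CG33119 (NimB1), a secreted protein of the same Nimrod family as NimC1, averaged 0.0903 ± 0.0802 CPM in the Myb mutant and 1.52 ± 0.289 CPM in the control (SD, n = 5 and n = 3). TepI (Tep1), a thioester protein of the complement type, averaged 0.261 CPM in the Myb mutant and 1.91 CPM in the control. The C-type lectin genes lectin-28C and lectin-24Db were 13.1-fold and 31.9-fold lower. All 8 genes of the group were at their lowest control level in control library 1.

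The hemocyte marker list held genes that met the rule and genes that differed less or in the other direction. Of 30 hemocyte genes found in the table, 27 were tested; edgeR called 12 lower and 4 higher at an adjusted p under 0.05, but 10 of the 12 lower calls were genes that the rule had picked on this same contrast. Of the 16 tested genes outside the rule, 2 were called lower (12.5%, against 17.5% of all tested genes) and 4 higher. Their median log2 fold change was -0.04, against 0.01 over all tested genes. The 16 exclude genes that met the rule, while all tested genes include them, so these values are not like for like. The whole list summed to between 1289 and 1499 CPM in the Myb mutant libraries and between 1769 and 1881 CPM in the control libraries. Within it, 11 genes met the rule, 5 of them among the 64 (CG8193, Bc, CG8942, CG33119 and Sr-CI) and 6 left out by name (Hml, Pxn, He, CG6124 or eater, CG33115 or NimB4, and Glt). Those 11 genes summed to between 10.6 and 39.2 CPM in the Myb mutant libraries, against 359 and 526 CPM in the lowest and highest control library. The general plasmatocyte marker Hml averaged 1.83 CPM in the Myb mutant and 60.8 CPM in the control, and none of the 11 was at 0 in every Myb mutant library.

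The genes called lower outside the rule were srp and the collagen gene Cg25C (Col4a1), whose log2 fold change was -0.26 (edgeR adjusted p = 0.034). The GATA factor gene srp, which blood cells and fat body both use, averaged 1.18 ± 0.631 CPM in the Myb mutant and 4.64 ± 0.989 CPM in the control, a called log2 fold change of -1.98 ± 0.40 (SE; edgeR adjusted p = 0.0057). Genes called higher were Dox-A3 (PPO3), the prophenoloxidase of lamellocytes, with 4.47 ± 0.456 CPM in the Myb mutant and 2.04 ± 0.0115 CPM in the control, the lamellocyte marker CG6579 (atilla), Sr-CIV and gcm. Another collagen gene, vkg, which fat body also expresses, averaged 138 CPM in the Myb mutant and 141 CPM in the control. In bulk libraries fewer cells of a type and less RNA per cell cannot be told apart, and the part of blood cell content in the levels of the 64 genes was not tested.

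**Figure D3:**
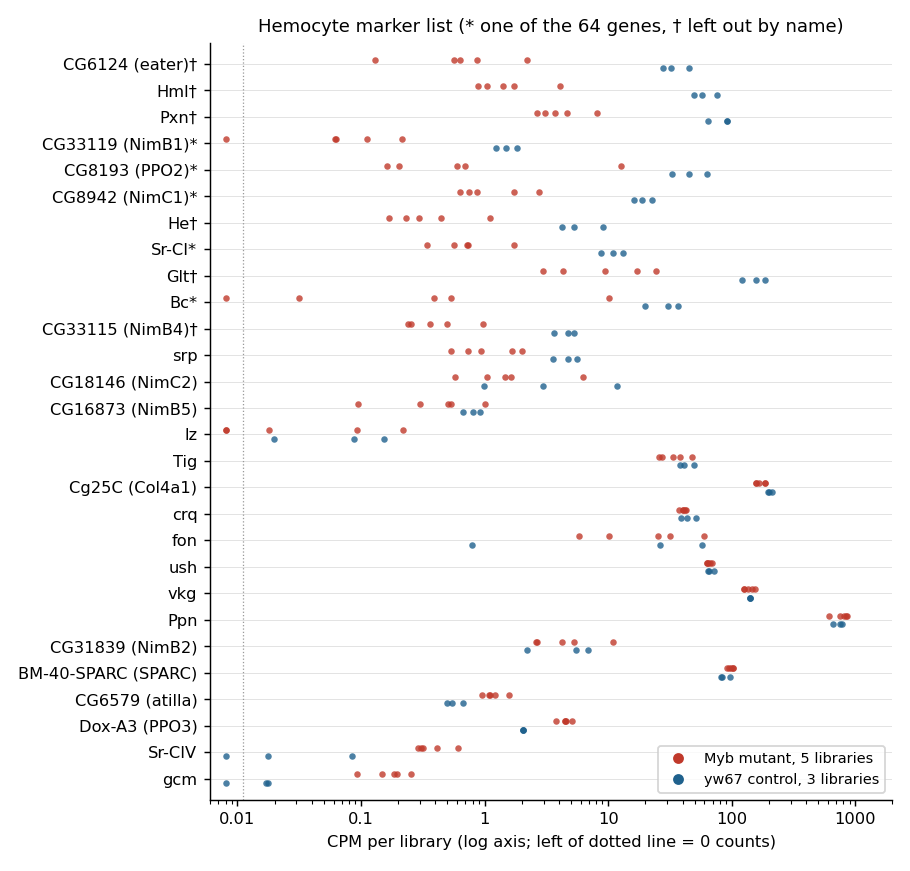
CPM per library (horizontal, log axis) of 28 hemocyte marker genes with at least 0.1 CPM over the summed group means, ordered from the gene lowest in the Myb mutant relative to the control (top) to the highest, with Myb mutant libraries in red above control libraries in blue. The 11 genes at the top, marked with a star (among the 64) or a dagger (left out by name), have Myb mutant libraries below all control libraries, whereas vkg and crq have overlapping groups and Dox-A3, atilla, Sr-CIV and gcm lie to the right of the control.

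Among the 64 genes, 2 were enzymes of ecdysone synthesis, and both rested on a single control library. phm (phtm) and sad encode cytochrome P450 enzymes that act in the prothoracic gland, the source of the moulting hormone and an organ separate from the wing disc. phm had 1.99, 1.82, 1.96, 1.71 and 2.11 CPM in the Myb mutant libraries, against 3.74, 3.58 and 53.3 CPM in the control libraries. sad had 2.38, 1.78, 1.80, 1.95 and 1.81 CPM in the Myb mutant libraries, against 1.27, 2.05 and 33.3 CPM in the control libraries. Control library 3 alone was high for both genes, and without it phm was 1.91-fold lower in the Myb mutant while sad, with a log2 ratio of 0.23, was not lower.

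CG41624 (spok), which acts in the same pathway, held 0 counts in control libraries 1 and 2 and 34.3 CPM in control library 3, against at most 0.0896 CPM in a Myb mutant library. spok, phm and sad were the only genes of the table at 5 CPM or more in control library 3 and 5-fold over both other control libraries. The 9 steroid synthesis genes, a list added after the values were seen, summed to between 13.0 and 14.1 CPM in the Myb mutant libraries and to 16.4, 15.6 and 141 CPM in control libraries 1 to 3. CG4408 was also at its highest in control library 3. It had 1.38, 0.242, 0.801, 2.49 and 0.614 CPM in the Myb mutant libraries, against 4.82, 3.88 and 22.1 CPM in the control libraries. Its groups did not overlap, and without control library 3 it was 3.93-fold lower. Whether material from another organ contributed to that library was not tested.

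**Figure D4:**
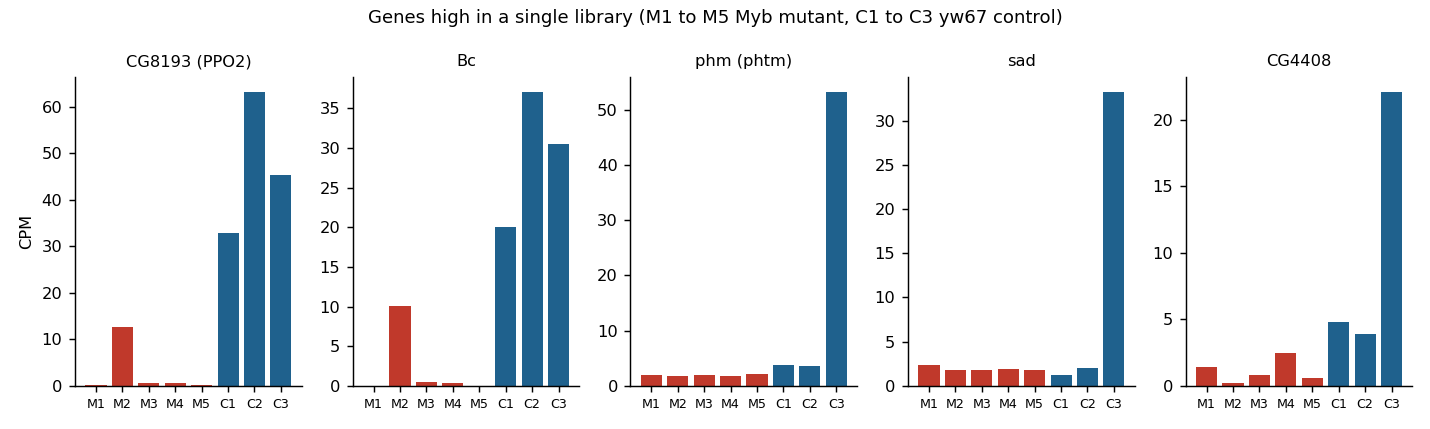
CPM in Myb mutant libraries 1 to 5 (M1 to M5, red) and control libraries 1 to 3 (C1 to C3, blue) for CG8193, Bc, phm, sad and CG4408; each panel has its own vertical axis starting at 0. CG8193 and Bc are high in M2 alone among the Myb mutant libraries (12.7 and 10.1 CPM), and phm, sad and CG4408 are high in C3 alone (53.3, 33.3 and 22.1 CPM).

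A set of 5 genes had roles in meiosis, chromosome segregation or the testis proteasome. CG8316 (corolla), a protein of the synaptonemal complex that joins paired chromosomes in female meiosis, had 1.54, 1.88, 1.68, 1.95 and 2.25 CPM in the Myb mutant libraries, against 14.1, 13.1 and 15.6 CPM in the control libraries. Rpt3R, a regulatory proteasome subunit found in the testis, had 0.466, 0.818, 0.955, 0.651 and 0.661 CPM in the Myb mutant libraries, against 9.58, 10.7 and 9.72 CPM in the control libraries. Both genes were low in every Myb mutant library and had control libraries close to each other. CG31658 (Nnf1b), a kinetochore protein, averaged 0.0504 ± 0.0219 CPM in the Myb mutant and 0.834 ± 0.0796 CPM in the control, and the row Rad51D, now named Xrcc2 and a factor of recombination repair, averaged 0.279 ± 0.0802 CPM in the Myb mutant and 1.48 ± 0.506 CPM in the control (SD, n = 5 and n = 3 throughout). Rad51D was 5.29-fold lower on the means and 4.38-fold lower without control library 3. mei-217, which meiotic crossing over requires, averaged 2.90 ± 0.469 CPM in the Myb mutant and 17.7 ± 4.66 CPM in the control. mei-217 overlaps mei-218 (X:17135985-17142990) on the same strand, and mei-218 averaged 2.80 CPM in the Myb mutant and 17.2 CPM in the control, so reads of this pair may not have been told apart.

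Apart from mei-218, which was left out by name, the meiotic genes on the germline list were called higher or were not called. c(3)G, another synaptonemal complex protein, averaged 13.6 ± 1.26 CPM in the Myb mutant and 6.597 ± 1.74 CPM in the control and was called higher (log2 fold change 1.04 ± 0.15, SE; edgeR adjusted p = 0.0011). mei-P22 and mei-9 were called higher as well, with log2 fold changes of 0.66 and 0.15, and mei-W68, c(2)M and cona were not called. Across the whole germline list of 34 tested genes, 8 were called lower and 15 higher. Among the 8 were mei-218 and spn-E, which met the rule and were left out by name. Over all tested genes 17.5% were called lower and 16.9% higher. Of the testis list, 5 of 20 genes were tested and 3 were called lower: Rpt3R itself, topi and vis. CG13434 (Nnf1a), the paralog of Nnf1b, averaged 8.63 ± 0.720 CPM in the Myb mutant and 21.4 ± 1.12 CPM in the control and was called lower with a log2 fold change of -1.31 ± 0.07 (SE; edgeR adjusted p = 2.66e-06).

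Sugar hydrolases, a class of enzymes best known from the lysosome, made up another 3. Gal, a beta-galactosidase, had 0.233, 0.205, 0.293, 0.335 and 0.205 CPM in the Myb mutant libraries, against 8.10, 19.3 and 20.7 CPM in the control libraries. That made Gal 63.1-fold lower on the means, and control library 1 was lower than the other control libraries. Hexo2, a hexosaminidase, averaged 2.73 ± 0.452 CPM in the Myb mutant and 17.8 ± 4.74 CPM in the control, and CG5322 (LManI), an alpha-mannosidase, averaged 0.647 ± 0.298 CPM in the Myb mutant and 5.82 ± 0.331 CPM in the control. Their paralogs on the list differed far less: Hexo1 averaged 362 ± 9.30 CPM in the Myb mutant and 328 ± 50.9 CPM in the control and was not called, and CG6206 (LManII), which adjoins CG5322 at 416 bases, was called lower with a log2 fold change of -0.55 ± 0.11 (SE; edgeR adjusted p = 0.0049). Of 16 tested genes of the glycosidase and lysosome list, 5 were called lower, but 3 of these were genes that the rule had picked. Of the 13 tested genes outside the 64, 2 were called lower and 1 higher. Over all tested genes 17.5% were called lower and 16.9% higher.

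Peptidase genes included Ance-5, which resembles the angiotensin-converting enzyme, and the neprilysin-like genes CG14523 (Nepl19) and CG14527 (Nepl20). Ance-5 had 0.645, 0.130, 0.555, 0.855 and 0.2204 CPM in the Myb mutant libraries, against 11.8, 15.0 and 16.7 CPM in the control libraries, and was 30.1-fold lower. CG14523 had 0.215, 0.0558, 0.354, 0.483 and 0.173 CPM in the Myb mutant libraries, against 1.83, 2.58 and 2.80 CPM in the control libraries. These 3 genes were at their highest Myb mutant level in library 4 and at their lowest in library 2.

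Receptors and secreted signals among the 64 genes were nAcRbeta-21C (nAChRbeta3), a subunit of the nicotinic acetylcholine receptor, NtR, a channel of the same superfamily, mthl2, a G protein-coupled receptor of the Methuselah family, CG9972 (spz5), a Spatzle-type ligand of Toll receptors, and Nplp2, a neuropeptide-like precursor. NtR had 0.341, 0.167, 0.216, 0.502 and 0.110 CPM in the Myb mutant libraries, against 4.22, 7.59 and 7.22 CPM in the control libraries, a difference of 23.7-fold. The other 4 were between 5.76-fold and 8.62-fold lower. All 5 were lowest in library 1 among the control libraries.

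Of the metabolic enzymes, regucalcin, a member of the calcium-binding SMP30 family, had the most reads of all 64 genes. It had 34.1, 11.9, 24.5, 30.5 and 17.6 CPM in the Myb mutant libraries, against 144, 247 and 199 CPM in the control libraries. The Myb mutant libraries varied widely among themselves, yet all lay far below the control. CG10131 (Had2), a hydroxyacyl-CoA dehydrogenase, averaged 0.557 ± 0.292 CPM in the Myb mutant and 13.9 ± 3.59 CPM in the control and was 25.0-fold lower. Oat, the ornithine aminotransferase, was 9.39-fold lower, and GlcAT-P, a glucuronyltransferase of glycan synthesis, was 6.83-fold lower. Ugt36Bc (Ugt37D1), a UDP-glycosyltransferase, averaged 0.0650 CPM in the Myb mutant and 1.58 CPM in the control. It was on a detoxification list that mixes UDP-glycosyltransferases with other enzymes and with transporters. Of the other 24 tested genes of that list, 0 were called lower by edgeR at an adjusted p under 0.05 (1 at an unadjusted p under 0.05 and 0 by DESeq2). Of the same 24 genes, 10 were called higher, where 16.9% of all tested genes were.

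CG30502 (Fa2h), the fatty acid 2-hydroxylase, was nearly absent without Myb. It held 2 counts over the 5 Myb mutant libraries and 131 counts over the 3 control libraries, a pooled ratio of 115-fold with a 95% exact interval of 31.3-fold to 961-fold that covers counting error only. CG11125, a gene of no role given here, lies within the span of CG30502 on the other strand (2R:7447473-7449995 within 2R:7446189-7451553). CG11125 had 0.269, 0.521, 0.185, 0.260 and 0.315 CPM in the Myb mutant libraries, against 13.4, 14.6 and 13.7 CPM in the control libraries. The sources do not say if reads were assigned by strand, so the reads of this pair may have been mixed.

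The remaining 31 genes were not assigned a role here, and they included the steepest losses. CG10841 had 0.0359, 0.0372, 0.0154, 0 and 0 CPM in the Myb mutant libraries, against 29.3, 36.8 and 31.9 CPM in the control libraries. That was 5 reads in all the Myb mutant libraries together and a difference of 1847-fold. CG4950 had 0.0896, 0, 0.0308, 0.0558 and 0.0315 CPM in the Myb mutant libraries, against 8.28, 12.9 and 19.0 CPM in the control libraries, or 323-fold. CG31139 (3R:22747690-22749056) was 174-fold lower and CG16886 (Vajk1, 2L:13920707-13923553) was 76.9-fold lower, with 6 reads each over the Myb mutant group. In all of these the few reads were spread over 3 or 4 Myb mutant libraries.

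Genes of this group with higher control levels included some that kept more of their level and some that kept less. CG4382 had 15.6, 22.6, 15.7, 21.5 and 18.3 CPM in the Myb mutant libraries, against 123, 136 and 123 CPM in the control libraries. CG15353 averaged 18.8 ± 7.29 CPM in the Myb mutant and 107 ± 20.2 CPM in the control, and CG13044 averaged 6.72 ± 1.99 CPM in the Myb mutant and 52.4 ± 6.05 CPM in the control. CG3618 averaged 3.11 ± 0.681 CPM in the Myb mutant and 43.9 ± 2.17 CPM in the control, and CG7532, now l(2)34Fc, averaged 1.08 ± 0.296 CPM in the Myb mutant and 18.8 ± 0.632 CPM in the control (SD, n = 5 and n = 3 throughout). CG4382, CG15353 and CG13044 were between 5.73-fold and 7.80-fold lower, whereas CG3618 and CG7532 were 14.1-fold and 17.3-fold lower. The secreted protein gene fat-spondin varied more, with 3.57, 0.762, 1.99, 3.31 and 0.960 CPM in the Myb mutant libraries, against 20.9, 36.1 and 35.4 CPM in the control libraries. CG8501 and CG16820 were 13.5-fold and 5.97-fold lower.

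Just inside the threshold lay Mec2 at 5.00-fold, CG2663 at 5.07-fold and hoe1 at 5.10-fold. Mec2 averaged 0.895 CPM in the Myb mutant and 4.48 CPM in the control. Just outside it lay CG8630 at 4.73-fold, LysE at 4.53-fold and CG7777 (Prip) at 4.45-fold. CG8630 averaged 1.30 CPM in the Myb mutant and 6.14 CPM in the control, so the boundary falls within a continuum of genes.

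The 64 genes were far more variable within a genotype than other genes. On TMM-scaled values, the median coefficient of variation over the Myb mutant libraries was 50.8% for the 63 genes with mutant reads, against 4.58% for tested genes with a control mean of 0.5 CPM or more. Over the control libraries it was 22.3% for the 64 genes, against 8.87%. Low counts widen such percentages, and the genes compared were not matched for level. Control library 1 was the lowest control library for 46 of the 64 genes (71.9%), against 26.9% of tested genes. Among the Myb mutant libraries, library 4 was the highest for 27 of 63 genes (42.9%, against 27.2%) and library 2 was the lowest for 29 (46.0%, against 21.6%).

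Myb mutant libraries 1 and 4 both exceeded libraries 2 and 5 for 32 of the 63 genes (50.8%), against 16.8% of tested genes, a comparison of libraries chosen after the values were seen. The fat body list ran the same way within the mutant, at 5428, 529, 1942, 3566 and 843 CPM in Myb mutant libraries 1 to 5. Within the control it ran the other way from most of the 64 genes, at 4715, 1861 and 132 CPM in control libraries 1 to 3. Of its 10 tested genes edgeR called 1 lower and 0 higher at an adjusted p under 0.05, with 1 higher at an unadjusted p under 0.05 and 1 higher by DESeq2. The part of fat body content in the levels of the 64 genes was not tested.

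A position in the BDGP6 annotation was found for 62 of the 64 genes. Of these, 20 lay on chromosome arm 2L (32.3%, against 17.7% of tested genes), 11 on 2R (17.7%, against 20.5%), 9 on 3L (14.5%, against 19.6%), 12 on 3R (19.4%, against 24.3%) and 10 on X (16.1%, against 17.0%). The X chromosome, which carries the mutation, thus held about the share it has among tested genes. The 64 genes were shorter, with a median exonic length of 1740.5 bases against 2152 bases over tested genes. Pairs of them lay side by side at 4 places, where any genes between them that were not tested were passed over. The pairs were CG17928 and Ugt36Bc on 2L, CG30502 and CG11125 on 2R, and CG31337 and CG10841 as well as CG14523 and CG14527 on 3R. CG14523 (3R:28878024-28880122) and CG14527 (3R:28880792-28882945) were 669 bases apart on opposite strands with their starts facing each other, and CG31337 and CG10841 were 86541 bases apart.

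The nearest tested gene on each side of the 64 genes that neither met the rule nor was left out by name was examined. Neighbours lost 5-fold at 0.5 CPM or more in each control library were thus passed over. The counts therefore cannot say whether strong losses extended to neighbours. Of the 115 genes examined, 16 were called lower (13.9%, against 17.5% of all tested genes) and 17 higher (14.8%, against 16.9%). Their median log2 fold change was 0.00. At an absolute log2 fold change of 1 or more, 3 were called lower and 5 higher. CG32335 (meep), 279 bases from CG9119 (3L:1203316-1204795), averaged 0.0222 ± 0.0403 CPM in the Myb mutant and 0.423 ± 0.0925 CPM in the control, a log2 fold change of -4.21 ± 0.85 (SE; edgeR adjusted p = 0.0057). LysB, a lysozyme gene on the other side of CG9119, was called lower by 1.46 on the log2 scale, and CG9119 itself had 0.269, 0.335, 0.108, 0.0930 and 0.0787 CPM in the Myb mutant libraries, against 2.49, 4.43 and 3.49 CPM in the control libraries. Of the 3 neighbours called lower at that size, CG32335 and LysB thus lay on either side of CG9119, which the rule had chosen for its loss. The remaining one was CG15914 (X:15853421-15854970), which overlaps the end of Myb on the other strand and so may share its reads, with a log2 fold change of -1.03 ± 0.12 (SE; edgeR adjusted p = 0.00027).

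Of the neighbours called higher, the one with the largest log2 fold change was CG13045. It lies 11539 bases from CG13044 (3L:16302490-16303178) and averaged 0.972 ± 0.147 CPM in the Myb mutant and 0.0133 ± 0.0230 CPM in the control, where it held 2 counts. It was 81.0-fold higher on pooled counts, with a 95% exact interval of 22.2-fold to 672-fold, and edgeR's adjusted p was 0.00019. gcm, the glial and blood cell regulator beside CG4382, and the receptor gene GABA-B-R3 beside CG31658 were 14.5-fold (3.81 to 123) and 10.4-fold (3.39 to 52.1) higher in the same measure, from 2 and 3 control counts. CG34247, beside CG4950, averaged 0.367 CPM in the Myb mutant and 0.0235 CPM in the control. The ETS factor gene Ets21C, which overlaps nAcRbeta-21C on the other strand, averaged 4.03 ± 0.647 CPM in the Myb mutant and 1.79 ± 0.617 CPM in the control (log2 fold change 1.15 ± 0.25, SE; edgeR adjusted p = 0.0073).

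**Figure D5:**
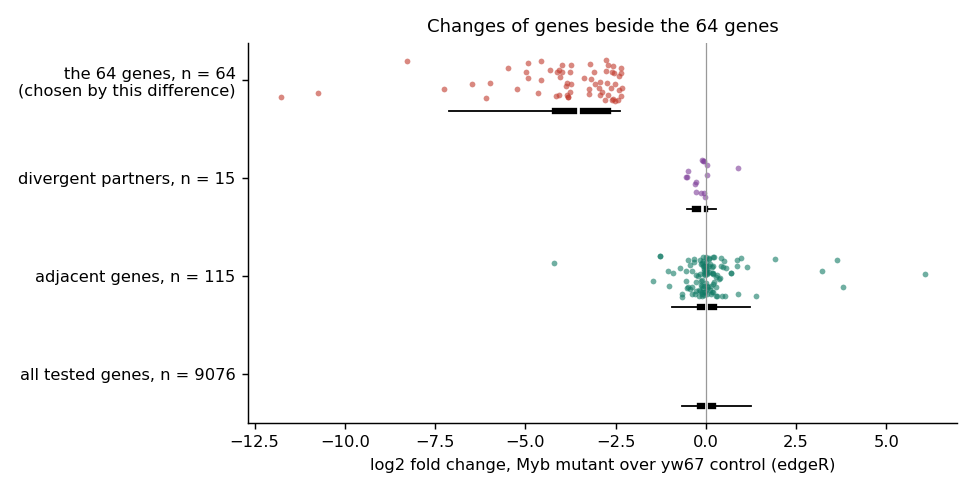
log2 fold change, Myb mutant over control, in the edgeR fit for the 64 genes (red; chosen by this difference), their 15 tested divergent partners (purple), the 115 adjacent genes (green) and all 9076 tested genes (bar only). Points are genes, thick bars span the interquartile range with the median as a white mark and thin lines run between percentiles 5 and 95. The adjacent genes centre on 0, as all tested genes do. Genes that met the rule or were left out by name are not among the partners and adjacent genes.

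The study examined divergent gene pairs, genes on opposite strands whose starts lie close together. With a limit of 1000 bases, 18 of the 64 genes had such a partner. There were 15 tested partners that were neither among the 64 nor left out by name. Of these, 5 were called lower and 0 higher by edgeR at an adjusted p under 0.05 (0 higher also at an unadjusted p under 0.05 and by DESeq2), with a median log2 fold change of -0.11, where 17.5% of all tested genes were called lower. The 5 were CG6206, Gbeta13F, CG12859, Spp and CG1492, with log2 fold changes between -0.55 and -0.27. CG1492 starts 166 bases from regucalcin. Gbeta13F starts 628 bases from AlkB, which MH107 deletes, so loss of Myb and loss of that DNA cannot be told apart there. Cyp28a5, whose start lies 533 bases from that of CG8942, was not among the 15 because its gene family was left out by name. Cyp28a5 averaged 0.996 ± 1.16 CPM in the Myb mutant and 0.298 ± 0.102 CPM in the control. Its log2 fold change of 1.72 was not called (edgeR adjusted p = 0.13). Partners that met the rule were also not among the 15, so 5-fold losses at 0.5 CPM or more in each control library could not appear. CG14523 and CG14527, both among the 64, were such a pair, with starts 670 bases apart and log2 fold changes of -3.22 and -2.79. Spp, 476 bases from the start of nAcRbeta-21C, averaged 193 ± 5.61 CPM in the Myb mutant and 232 ± 11.03 CPM in the control. The gene beside it, nAcRbeta-21C, averaged 0.973 ± 0.549 CPM in the Myb mutant and 6.41 ± 1.496 CPM in the control. GM130, 306 bases from NtR, averaged 61.1 ± 2.22 CPM in the Myb mutant and 59.6 ± 1.14 CPM in the control. With the libraries of each described biological replicate added together, 2 of the 15 partners were called lower, and without control library 2 there were 8.

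None of the 66 tested genes on a mitosis list was among the 64, although CG31658 (Nnf1b), a kinetochore gene that the list did not hold, was. Of the 66, 45 were called lower and 1 higher, with a median log2 fold change of -0.49, and 1 of them, CG13914 (msd1), met the rule at 5.51-fold and was left out by name. CG10191 (Poc1), a centriole protein, and pon, the partner of Numb in asymmetric division, were not on the list; they met the rule at 15.6-fold and 6.01-fold and were left out by name as well. For example aur (aurA), the Aurora A kinase, averaged 22.1 ± 1.14 CPM in the Myb mutant and 57.8 ± 3.37 CPM in the control, a called log2 fold change of -1.39 ± 0.05 (SE; edgeR adjusted p = 2.06e-07). Of 15 tested genes of the dREAM complex and its partners, 4 were called lower and 1 higher, and none of them was among the 64.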

How the data were processed

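The authors trimmed adapters with Trimmomatic, used Bowtie2 version 2.1.0 to align the reads to exons from an early FlyBase gene set, combined lanes, and summed unique read counts per gene from eXpress. Use of strand was not stated. The deposited values were raw read counts per gene. The deposited table also held the authors' DESeq2 log2 fold changes and p-values, which were not used. The row of mitochondrial reads (0.574% to 1.34% of counts) was left out, and CPM came from the remaining column totals.

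The tests were edgeR version 4.0.16 in R version 4.3.3 (quasi-likelihood, TMM, filterByExpr, genotype as the only term), with Benjamini-Hochberg adjustment over 9076 genes; the SE is the absolute log2 fold change over the square root of the F statistic. DESeq2 version 1.42.0 was an alternative. A floor of 3 counts over a group stood for 0; floors and intervals cover counting error only.

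The genes and lists were chosen with earlier results of these data known, and the roles after the values were seen. Named were the 25 genes with the highest control CPM, genes without mutant counts, side by side, on a list or next to the threshold, and other genes called with an absolute log2 fold change of 1 or more; genes beyond this rule were chosen after their values were seen. Positions and newer names come from BDGP6 (Ensembl release 115), which is not the build of the alignment; 12120 identifiers matched, 1525 matched by symbol, locus tag or synonym and 654 did not.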

Additional observations from a re-analysis of the deposited data

Results flagged for a closer look

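Among 37 named genes, the gap at either end of the 5 Myb mutant libraries was set against Dixon's critical value for 5 samples, which chance passes in about 1 in 20 groups. It was passed in 4 cases, each at the highest library. The highest values were 12.7 CPM in Myb mutant library 2 for CG8193, 10.1 CPM in the same library for Bc, 2.38 CPM in Myb mutant library 1 for sad and 1.73 CPM in Myb mutant library 4 for Sr-CI. CG8193 and Bc, both genes of crystal cells, stood out in the same library, where NimC1 was at 0.744 CPM and Sr-CI at 0.725 CPM, within the range of the other Myb mutant libraries. CG5399, with its highest value in Myb mutant library 1, was not among the 37 genes. The control groups hold 3 libraries each and were not examined in this way.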

How the results depend on the processing

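The numbers shared by the genotypes in the labels did not pair the libraries: the deviations of same-numbered libraries correlated at 0.36, -0.11 and -0.03 across genes. With the replicate block, edgeR called 647 genes lower and 750 higher, 5 adjacent genes lower and 0 divergent partners lower. With libraries summed by the described biological replicates (1 control and 2 mutant samples, the control assumed to vary like the mutant), 766 genes were called lower and 744 higher, with 5 adjacent genes and 2 divergent partners lower. With a library left out, between 9 and 20 adjacent genes and between 2 and 8 divergent partners were called lower; the main counts were 16 and 5. The cause of these shifts was not tested.

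The rule found 33 genes at a limit of 10-fold, 75 at 4-fold, 58 at 1 CPM, 89 at 0.1 CPM and 65 with TMM scaling or with medians; the mirror rule found 202 at 0.1 CPM. With a library left out it found between 59 and 70 genes. Without control library 3 there were 60, of which 54 were shared, and CG15484, CG30456, CG4408, CG5399, Karl, Mec2, Rad51D, hoe1, phm and sad were lost. Without that library the log2 ratio of sad was 0.23 and that of phm -0.93; with each library left out in turn, that of sad ran between -3.18 and 0.23. The promoter motif search was not run, since no sequence was used here. Counts under 0.1 CPM rest on a few reads, so folds over 50 are imprecise.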

Other observations

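CG9119 lies beside a cluster of lysozyme genes on 3L. Of these, LysE and LysD missed the 5-fold limit of the rule but met one of 4-fold, whereas LysB met neither. This pattern was noticed after the values were seen. LysE, at 4.53-fold just outside the 5-fold limit, averaged 0.238 CPM in the Myb mutant and 1.08 CPM in the control. LysD averaged 0.736 ± 0.236 CPM in the Myb mutant and 2.95 ± 1.90 CPM in the control, with a log2 fold change of -2.01 ± 0.42 (SE; edgeR adjusted p = 0.0071), and LysB averaged 0.837 ± 0.321 CPM in the Myb mutant and 2.31 ± 1.40 CPM in the control. In LysE, control library 1 had 1.77 CPM and control library 3 had 0.508 CPM, whereas most of the 64 genes were lowest in control library 1. Lysozyme genes are close copies of each other, so their counts depend on how unique reads were assigned.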
